A study of Mus musculus with 2 samples.

Results

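Serpins and stefins are families of protein inhibitors of proteases. The 10 mouse genes Serpina3n, Serpinb1a, Serpinb2, Serpinb3a, Serpinb5, Serpinb6a, Serpinb9, Serpinh1, Cstdc5 and Csta3 are described here across the cell classes of the corneal epithelium in a control and a dry eye library. They were taken by name, and all 10 were among the 17891 genes of the deposited count table. The names had been chosen from results of these same data, so the levels and differences are given as a description, with no test.

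A serpin inhibits by offering a flexible loop as bait: the protease cuts it, is carried across the serpin and is held there in a distorted, inactive form. Clade A serpins such as Serpina3n are secreted, whereas clade B serpins mostly stay inside the cell, and some act on cysteine proteases in place of serine proteases. Serpinb5 (maspin) and Serpinh1 inhibit no known protease in this way: Serpinh1, also called HSP47, is a chaperone of collagen in the endoplasmic reticulum. Stefins are small inhibitors in the cytosol that plug the active site of cathepsins and other cysteine proteases, and human stefin A is a component of the cornified envelope of squamous epithelia. The mouse carries a cluster of stefin A genes, to which Cstdc5 and Csta3 belong.

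The cells came from 7 male C57BL/6J mice aged 10 weeks, each of which had lost the extra- and intra-orbital lacrimal glands of the right side, and the eyes were taken on day 9. Epithelium from the 7 left eyes was pooled as the control, and epithelium from 6 right eyes, 1 injured eye being set aside, was pooled as dry eye. The control eyes thus belonged to animals that had been operated on too, and treatment went with the side of the head. There was 1 library per group, so no difference has a replicate check and all comparisons are between these 2 libraries. Each counted RNA molecule carries a unique molecular identifier (UMI). Control had 17465 cells with 191493194 UMIs in sum and a median of 8248 per cell; dry eye had 16420 cells, 207030777 UMIs and a median of 9086.5.

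The authors' annotation put each cell into 1 of 13 classes, and their names are used as deposited: LSC, TAC1, TAC2, Basal, Wing, Squam, Conj, Immune and the 5 starred classes LSC*, TAC1*, TAC2*, Wing* and Squam*. What the asterisk means is not stated in the sources used here. The starred classes came almost wholly from dry eye, with 172 control and 1793 dry eye cells holding 0.989% and 14.4% of the libraries' UMIs, so every sum over all cells of the 10 genes is also given without them. Of the starred classes only TAC1* had at least 100 cells in each library (133 and 473), which made 8 classes that could be compared between libraries. CPM is a gene's share of all UMIs of the cells summed, scaled to 1e6. Krt12, the corneal keratin, stood at 21650 and 19320 CPM in control and dry eye. The 6 conjunctival markers summed to 10810 and 13150 CPM in Conj, but also to 7273 and 10660 CPM in Squam. The libraries shared 74 cell barcodes.

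The 2 stefins lie in a cluster of near copies, and the sequence just ahead of their starts shows how near. In the mouse build GRCm38.p6, RefSeq placed Cstdc5 at chr16:36359382-36367570 on the minus strand and Csta3 at chr16:36210403-36217788 on the plus strand. A window ahead of the start was found for 9 of the 10 genes. The 250 bases ahead of the 2 stefin starts are shown because both genes were higher in dry eye while their levels differed widely, and capitals mark stretches of at least 12 bases that are the same in both.
Cstdc5, chr16:36367571-36367820: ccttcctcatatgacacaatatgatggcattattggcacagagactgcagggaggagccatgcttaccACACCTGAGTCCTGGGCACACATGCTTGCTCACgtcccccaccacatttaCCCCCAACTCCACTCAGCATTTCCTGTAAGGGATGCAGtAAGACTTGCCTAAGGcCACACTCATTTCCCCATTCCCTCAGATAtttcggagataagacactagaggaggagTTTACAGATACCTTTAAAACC
Csta3, chr16:36210153-36210402: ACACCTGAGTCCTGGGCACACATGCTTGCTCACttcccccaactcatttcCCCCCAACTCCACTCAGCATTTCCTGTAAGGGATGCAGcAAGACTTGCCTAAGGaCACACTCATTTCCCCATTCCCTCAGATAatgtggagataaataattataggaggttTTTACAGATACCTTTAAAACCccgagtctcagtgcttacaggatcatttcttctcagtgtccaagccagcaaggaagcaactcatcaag
Of 182 aligned bases 166, or 91.2%, were identical. The copy of the shared stretch in Csta3 ends further from the listed start than that in Cstdc5. Cstdc5 was nearer still to Stfa1, at 96.1% of 229 aligned bases.

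Of the genes described here, the next 2 windows belong to the secreted serpin and the clade B serpin with the largest difference between libraries. Serpina3n (chr12:104406646-104414334, plus strand) and Serpinb2 (chr1:107500892-107525600, plus strand) are shown for the 250 bases ahead of a listed transcript start. Both strands were searched for TATAAA, the core of the TATA box, and for TGANTCA, the AP-1 site with any middle base, and capitals mark the matches, which do not overlap each other.
Serpina3n, chr12:104406458-104406707: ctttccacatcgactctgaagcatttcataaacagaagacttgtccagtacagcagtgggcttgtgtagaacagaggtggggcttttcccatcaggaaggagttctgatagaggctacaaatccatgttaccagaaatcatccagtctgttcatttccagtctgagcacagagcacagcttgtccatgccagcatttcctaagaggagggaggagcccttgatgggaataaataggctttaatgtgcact
Serpinb2, chr1:107511173-107511422: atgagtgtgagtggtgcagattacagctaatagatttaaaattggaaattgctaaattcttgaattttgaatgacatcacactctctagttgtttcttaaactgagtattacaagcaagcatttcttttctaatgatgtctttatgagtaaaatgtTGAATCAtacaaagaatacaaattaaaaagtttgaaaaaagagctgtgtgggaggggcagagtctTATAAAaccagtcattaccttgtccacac
Serpinb2 had 2 listed starts. The TATAAA began 29 bases and the TGANTCA match 94 bases ahead of the one shown, and 116 and 181 bases ahead of the other. The TGANTCA match, TGAATCA, differs in its middle base from the usual TGACTCA and TGAGTCA. Among 32851 RefSeq windows of the same length, 12.4% held TATAAA and 6.75% held TGANTCA. The other members with a match were Serpinb3a for the first and Serpinb5 for the second, and Serpina3n held neither.

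Over all cells, 6 of the 10 genes were higher in dry eye and 0 were lower. A gene counted as higher or lower where the ratio of CPM in dry eye over control was at least 1.5-fold from 1 and its exact 95% interval, which covers counting error only, did not reach 1. Among 13100 genes with at least 100 UMIs, 6.87% were higher and 5.02% lower by that rule. The 6 were Csta3, Serpina3n, Serpinb2, Serpinb3a, Cstdc5 and Serpinh1, while Serpinb6a, Serpinb9, Serpinb5 and Serpinb1a stayed within 1.5-fold. The median log2 ratio of the 10 was 0.79, against -0.07 for all 13100 genes. Without the starred classes 4 of the 9 genes that still had 100 UMIs were higher (Serpina3n, Serpinb3a, Serpinb2 and Cstdc5), where 4.8% of all genes were higher and 3.28% lower. Csta3 was left with 2 control and 35 dry eye UMIs (18.7-fold, 4.81 to 160.6), and the ratio of Serpinh1 moved from 1.64 to 1.45.

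**Figure D1:**
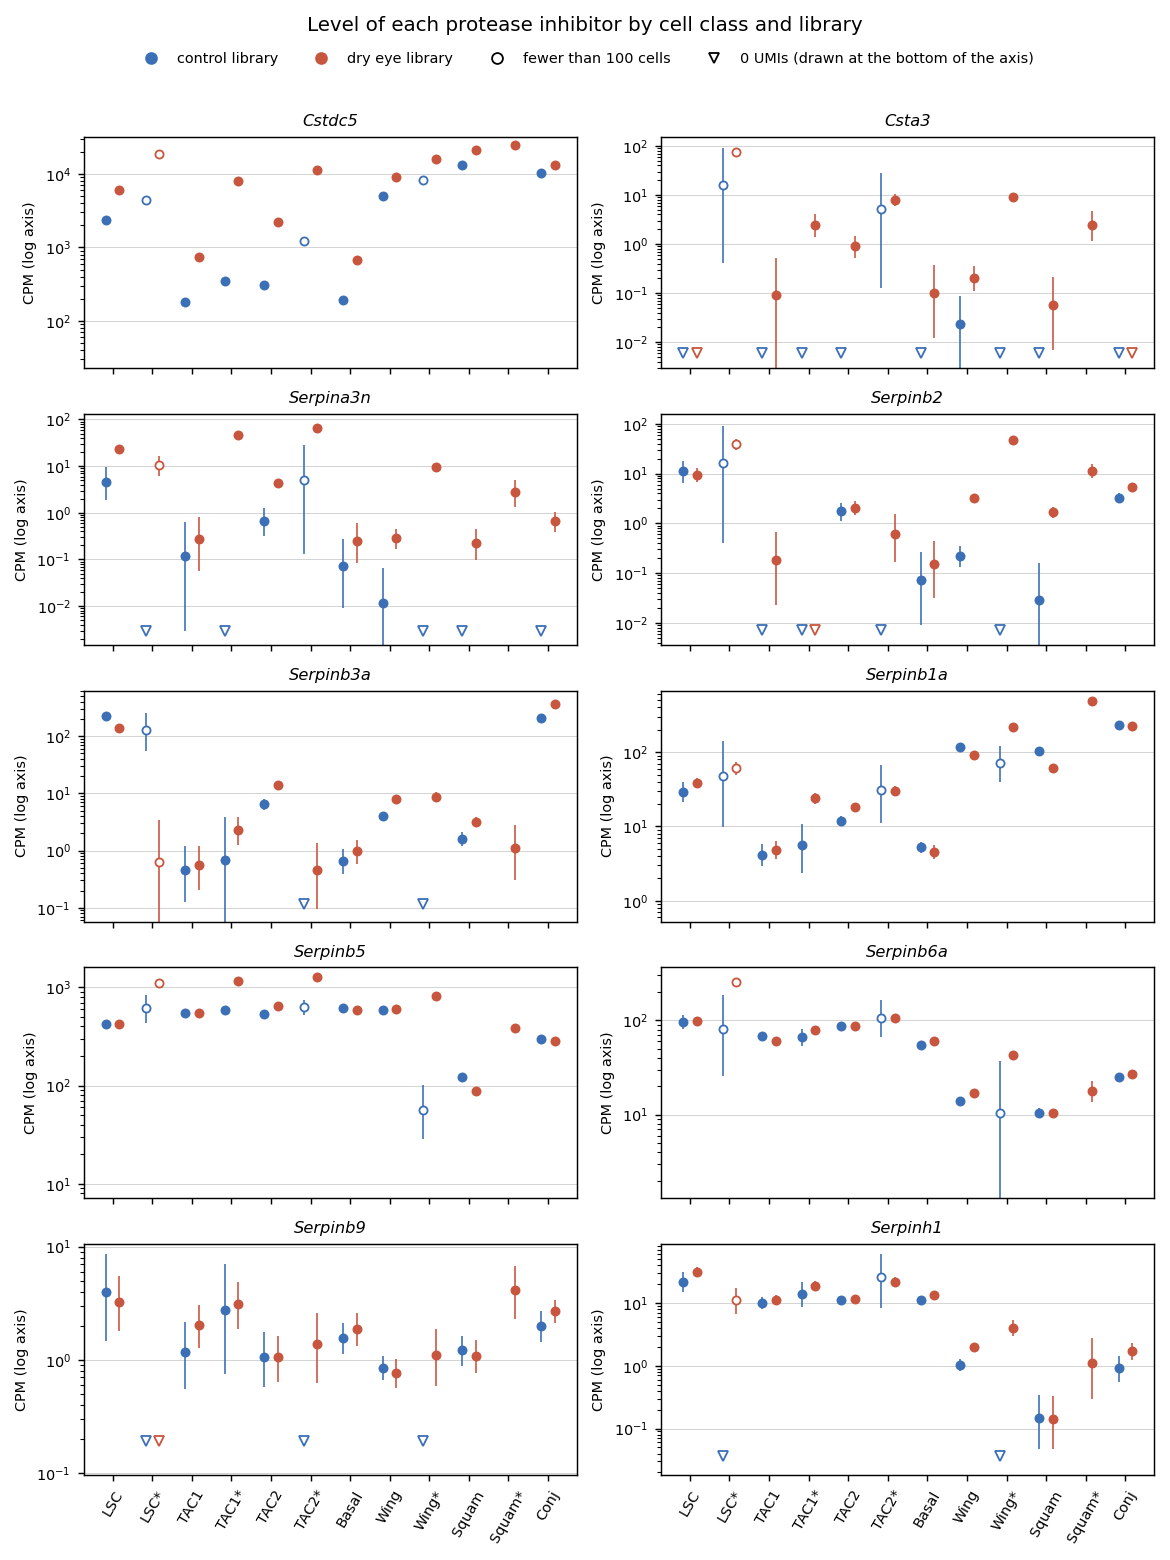
Level of each gene by cell class in CPM on a log axis, control and dry eye side by side, with exact 95% Poisson intervals of the UMI count and triangles at the bottom of the axis for classes with 0 UMIs. Cstdc5 peaks in Squam and Squam*, Serpinb3a in Conj and LSC, and Serpina3n and Csta3 are near 0 in nearly every control class.

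Cstdc5, a stefin of the stefin A cluster, was by far the most abundant of the 10 in UMIs. It made up 1107784 control UMIs and 2179204 dry eye UMIs, or 5785 and 10530 CPM, a ratio of 1.82 (1.815 to 1.824), and 1.69 without starred cells. In control its level was highest in Squam, at 13140 CPM, followed by 10260 in Conj, 5063 in Wing and 2390 in LSC. Lower levels were 352 in TAC1*, 308 in TAC2, 195 in Basal and 182 in TAC1. Of neighbours in that order, only Basal and TAC1 had intervals that overlapped. The superficial cells thus held the most, and Basal and the TAC classes the least.

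In dry eye the lower layers differed from control by more than the upper ones. Cstdc5 was 4.12 times the control level in TAC1 (3.91 to 4.36), 7.23 times in TAC2 (7 to 7.47), 3.43 times in Basal and 2.51 times in LSC. In Wing it went from 5063 to 9232 CPM (1.82-fold) and in Squam from 13140 to 21050 CPM (1.60-fold), while in Conj the ratio was 1.30, under the fold. TAC1* showed the widest gap, from 352 CPM in 133 control cells to 8125 CPM in 473 dry eye cells, 23.1 times (21.1 to 25.2). The TAC1* cells of the 2 libraries also differed in their corneal and limbal markers, as given above.
The starred classes of dry eye stood above the classes of the same name, at 24890 CPM in Squam*, 18700 in LSC*, 16030 in Wing* and 11330 in TAC2*. Within the dry eye library TAC1* had 10.8 times the level of TAC1, TAC2* 5.09 times that of TAC2, and Squam* 1.18 times that of Squam.

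RNA set free from broken cells and caught with others gives some UMIs of an abundant gene to every class, and Cstdc5 was abundant. Of classes with at least 100 cells Basal had the fewest Cstdc5 UMIs per cell in dry eye, where 51.7% of control and 78.5% of dry eye cells had at least 1 UMI at median depths of 5695 and 6126 UMIs, against 99.9% and nearly all cells of Squam at 9342 and 9518. When the upper limit for Basal, 4.71 UMIs per cell in dry eye, was subtracted from each dry eye class, the ratio was 1.40 in TAC1 and 5.78 in TAC2, and Basal by construction gave none. Of the 7 classes past the fold, LSC, TAC1*, TAC2, Wing and Squam stayed past it after this subtraction. The 31 Immune cells of dry eye had fewer, 1.06 UMIs per cell, and with their upper limit of 1.495 subtracted all 7 stayed past the fold, TAC1 at 3.26 and Basal at 2.32.
A further limit is the sequence: 82.6% of the 31-base words in the last 300 bases of the Cstdc5 transcript also occur in transcripts of other stefin genes, among them Csta1 and Stfa1. Reads from such stretches cannot be assigned to 1 gene by sequence, so the Cstdc5 values are uncertain as values of that gene alone.

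Csta3, the other stefin, was almost missing from control, with 4 UMIs in 17465 cells: 2 in Wing, 1 in LSC* and 1 in TAC2*. Dry eye had 340 UMIs in 158 cells, and the ratio was 78.6 with an interval from 30.4 to 290.2 that reflects the 4 control UMIs. Starred classes held 305 of the 340, or 89.7%. LSC* alone held 122 UMIs (75.4 CPM), Wing* 106 (8.99 CPM), TAC2* 53 (8.08 CPM), TAC1* 15 and Squam* 9. No Csta3 UMI was seen in LSC, in either library, or in Conj.
The shares of cells with a Csta3 UMI in LSC* and LSC of dry eye had intervals that did not overlap. These 2 classes also differed in markers. The 7 limbal markers summed to 4314 CPM in LSC* and 11990 in LSC, and the 5 basal markers to 23410 and 10590 CPM. Of 85 LSC* cells 48.2% (37.3 to 59.3) had a Csta3 UMI at a median depth of 16140 UMIs, and of 592 LSC cells 0 did at a median of 5478, which by the floor of 3 counts allows a share of up to 0.507%. With every cell thinned to 3000 UMIs and shallower cells left out, the shares were 21.3% of 80 cells and 0 of 488. The counts were uneven from cell to cell: in Wing* the 10 cells with the most held 72.6% of that class's Csta3 UMIs, and the highest cell had 27.
Csta3 and Cstdc5 went together by class only in part. Within dry eye both were higher in each starred class than in the class of the same name. For Csta3 the ratio ran from 9.05 in TAC2* to 43.4 in Wing*, and LSC had 0 UMIs. Yet Squam of dry eye had 731678 UMIs of Cstdc5 and 2 of Csta3. Only 3.41% of the 31-base words at the end of the Csta3 transcript occur in other genes.
Stefin A genes are also known from neutrophils, so markers of these cells were counted: 3 of the 5 were in the table and had 25 UMIs over both libraries, with Cxcr2 at 5 and 5, Mmp8 at 2 and 0 and Ly6g at 3 and 10 in control and dry eye. All 3 were at 0 in TAC2* of dry eye. In LSC* of dry eye they summed to 3 UMIs or 1.85 CPM, the highest level of any class. That compares with 0.234 CPM in LSC of dry eye and 0.0627 CPM over all cells of both libraries. Whether neutrophils gave any of the Csta3 UMIs was not tested.

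**Figure D2:**
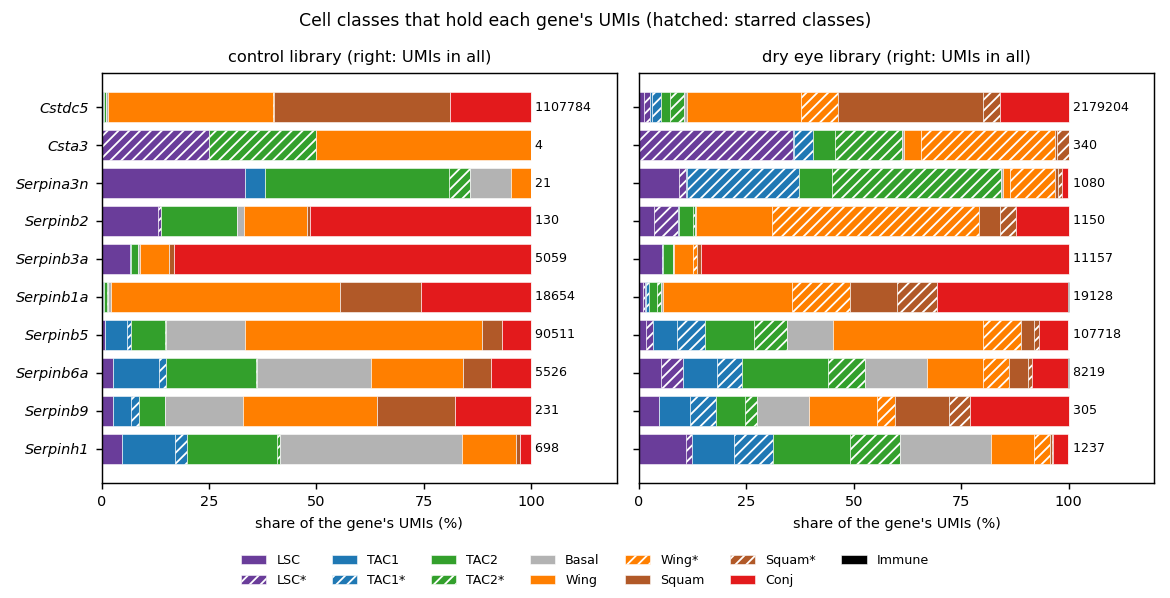
Share of each gene's UMIs held by each class, in percent of the gene's UMIs in control and in dry eye. In dry eye the starred classes hold 89.7% of Csta3, 78.3% of Serpina3n and 57.5% of Serpinb2, but 1.12% of Serpinb3a.

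Serpina3n, a secreted inhibitor of serine proteases that is known as an acute phase gene, had 21 UMIs in control and 1080 in dry eye. That is 0.110 and 5.22 CPM and a ratio of 47.6 (31 to 77.2). Control UMIs were 9 in TAC2, 7 in LSC, 2 in Basal and 1 each in TAC1, TAC2* and Wing. Without starred classes 20 and 234 UMIs were left, a ratio of 12.5 (7.92 to 20.9), and after weighting of the dry eye classes to the class shares of control it was 11.3; without the 10 cells of each library that had the most it was 112. The gene thus stayed past the fold by each route, and starred cells held 78.3% of its dry eye UMIs.
In dry eye TAC2* stood highest at 65 CPM, followed by TAC1* at 46.1, LSC at 23.7, LSC* at 10.5, Wing* at 9.41 and TAC2 at 4.31 CPM. The intervals of LSC* and Wing* overlapped, and those of TAC2 and Squam* (2.75 CPM). The other classes lay between 0.230 CPM in Squam and 0.657 in Conj, apart from Immune, with 0 UMIs in 31 cells. Outside the starred classes the gene was thus found mainly in LSC and TAC2, while TAC1 (0.278 CPM) was as low as Basal (0.253) and Wing (0.287).
Serpina3n UMIs were seen in 38.1% of TAC2* cells (34.1 to 42.2) at a median depth of 9868 UMIs, and in 0.175% of Basal cells at 6126. Thinned to 3000 UMIs, the shares were 16.6% and 0.0380%.

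Within classes Serpina3n was higher in LSC, TAC1* and TAC2. LSC went from 7 UMIs (4.66 CPM) to 101 (23.7 CPM), a ratio of 5.08 (2.38 to 13). TAC1* had 0 UMIs in 133 control cells and 282 in 473 dry eye cells, at least 22.2-fold higher when 3 UMIs are allowed for the control. TAC2 went from 9 to 82 UMIs, a ratio of 6.32 (3.17 to 14.3), but the 10 cells with the most held 64.6% of the dry eye UMIs, and the ratio of mean shares per cell was 2.40; with TAC2* joined the ratio was 26.6. Subtracting the free RNA bound left ratios of 4.96 in LSC and 5.75 in TAC2.
Starred cells differed from the class of the same name in both directions: within dry eye TAC1* had 166 times the level of TAC1 (3 UMIs), TAC2* 15.1 times that of TAC2 and Wing* 32.8 times that of Wing, while LSC* had 0.444 times that of LSC (0.249 to 0.747). Stromal cells can also express Serpina3n, and of the 6 stromal markers only Dcn was in the table, with 15 and 42 UMIs in LSC (9.98 and 9.84 CPM) and 0 in TAC2*.

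**Figure D3:**
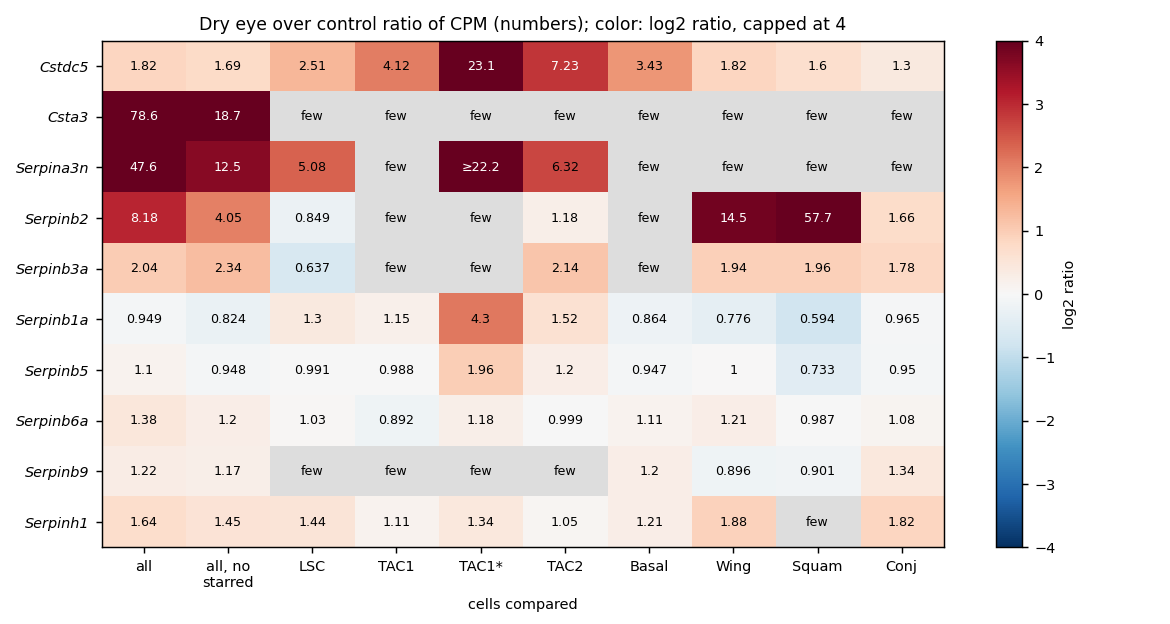
Ratio of dry eye over control CPM for each gene over all cells, without starred classes and within the 8 classes compared, on a log2 colour scale. The ratio is printed in each tile, or "few" where a gene had fewer than 50 UMIs within a class over both libraries. Tiles over all cells and without starred classes always print the ratio, which for Csta3 without starred classes rests on 2 control and 35 dry eye UMIs. Cstdc5 lies above 1 in every class and past 1.5-fold in all but Conj, Serpina3n is higher in LSC, TAC1* and TAC2, and only Serpinb3a in LSC and Serpinb1a in Squam are lower past 1.5-fold.

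Counted class by class, 22 gene-and-class pairs were higher in dry eye and 2 were lower. In LSC 2 of 8 genes with at least 50 UMIs were higher and 1 lower, where 2.41% and 5.84% of all genes were. TAC1 had 1 of 5 higher and 0 lower (1.91% and 1.76% of all genes), Basal 1 of 6 and 0 lower (1.95% and 2.07%). TAC2 had 4 of 8 higher and 0 lower (2.85% and 3.78%), and so did Wing (4.72% and 5.81%). In TAC1* 4 of 6 were higher, in a class where 11.9% of all genes were higher and 12.2% lower. Squam had 3 of 7 higher and 1 lower (3.65% and 13.6% of all genes), and Conj 3 of 8 higher and 0 lower (2.41% and 1.32%). The fold and background counts use the contrast by which the genes had been picked, and nothing is read from them.
After the free RNA bound was subtracted 16 of the 22 stayed at 1.5-fold or more with what was left, at its lower limit, still above the other library's interval. The 6 that did not were Cstdc5 in TAC1 and Basal, Serpinb1a in TAC2, Serpinb3a in Squam, and Serpinb2 and Serpinh1 in Conj, the last by its interval (ratio 1.52). With the bound from whichever class, Immune included, had the lowest upper limit, 19 stayed, Cstdc5 in TAC1 and Basal and Serpinb2 in Conj (1.59) among them.

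Serpinb3a, a clade B serpin akin to human squamous cell carcinoma antigens, had most UMIs in Conj but as high a level in control LSC. It had 5059 UMIs in control and 11157 in dry eye, or 26.4 and 53.9 CPM, a ratio of 2.04 (1.97 to 2.11), and 2.34 without starred cells. Conj held 83.3% of its UMIs in control and 85.5% in dry eye. The level in Conj was 207 CPM in control and 368 in dry eye, 1.78 times (1.72 to 1.85), while TAC1 and Basal stayed below 1 CPM in both libraries. UMIs were found in 38% and 42.1% of Conj cells at median depths of 10090 and 10460, and in 0.294% and 0.528% of TAC1 cells at 7656 and 8554.
LSC was the other class with much of it, and there the direction was opposite: control had 220 CPM (197 to 245) and dry eye 140 CPM (129 to 152), a ratio of 0.637 (0.556 to 0.731). The 6 conjunctival markers summed to 621 and 795 CPM in the same LSC cells. In each library 10 cells held much of the gene's LSC count, 51.7% in control and 42.4% in dry eye. The ratio was 0.757 without those cells and 0.717 among cells with at least 2000 UMIs, both short of the fold, and by mean shares per cell it was 0.316. LSC* of dry eye had 1 Serpinb3a UMI in 85 cells, 0.00441 times the level of LSC.
In TAC2 the gene went from 6.51 to 13.9 CPM (2.14-fold) and in Wing from 4.06 to 7.86 CPM (1.94-fold). Conjunctival markers moved there too, from 128 to 210 CPM in TAC2 and from 2016 to 3304 in Wing. These markers were also high in Squam, and their part in the result was not tested. A few cells carried much of the count in TAC2, where 10 cells held 90.7% of control and 60.8% of dry eye UMIs, and without them the ratio was 9.01. In Squam 56 and 110 UMIs gave a ratio of 1.96, of which 10 cells held 84.6% in dry eye; once the top 10 cells were removed from both libraries, the ratio was 0.807, so the direction in Squam rests on those cells. Of the end of the Serpinb3a transcript 10.7% of 31-base words occur in Serpinb3b or Serpinb3c, so part of the count could be theirs.

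Serpinb2, the intracellular inhibitor of plasminogen activators known as PAI-2, was scarce in control and higher in the upper layers of dry eye. Its 130 control and 1150 dry eye UMIs were 0.679 and 5.56 CPM, a ratio of 8.18 (6.82 to 9.89), and 4.05 (3.33 to 4.96) without starred cells. In control LSC had 11.3 CPM and Conj 3.29 CPM, with 51.5% of all control UMIs in Conj. In dry eye the highest levels were 46.8 CPM in Wing* and 38.9 CPM in LSC*, whose intervals overlapped, then 11.5 in Squam*, 9.61 in LSC and 5.45 in Conj. Wing* alone held 48% of the dry eye UMIs.
Among unstarred cells the difference lay in Wing and Squam. Wing went from 19 UMIs in 5651 cells to 205 in 3389, or 0.225 to 3.27 CPM, a ratio of 14.5 (9.05 to 24.6), or 24.9 without the top 10 cells and 45.2 with Wing* joined. Squam had 1 control and 58 dry eye UMIs, a ratio of 57.7 (9.96 to 2319). Conj was 1.66 times control, and LSC (0.849, interval 0.472 to 1.59) and TAC2 (1.18, interval 0.686 to 2.06) had intervals that held 1. LSC rests on few cells, since 10 of them held 88.2% of the control UMIs, and without the top 10 cells the ratio was 3.65.
TAC1* of dry eye had 0 Serpinb2 UMIs in 473 cells, which allows up to 3 UMIs or 0.491 CPM. Macrophages are a known source of Serpinb2. The 20 control and 31 dry eye cells of the Immune class had 0 UMIs of it, which allows up to 84.7 and 60 CPM, more than the level of any class, so these few cells do not bear on that source. The 8 immune markers summed to 2.06 CPM in control and 0.335 CPM in dry eye in Wing, and to 7.55 CPM in Wing* of dry eye.

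Serpinb1a, an inhibitor of neutrophil elastase and related proteases, had nearly the same level in both libraries over all cells, 97.4 and 92.4 CPM (0.949, interval 0.930 to 0.968, and 0.824 without starred cells), but not within every class. In control it was highest in Conj (234 CPM), Wing (118) and Squam (102), followed by LSC (29.3), TAC2 (11.9) and the TAC1*, Basal and TAC1 classes at 5.55, 5.27 and 4.19 CPM, whose intervals overlapped. Squam was lower in dry eye, 60.6 against 102 CPM, a ratio of 0.594 (0.563 to 0.627), and Wing stood at 91.5 CPM against 118 (0.776). Squam* of dry eye had 491 CPM, 8.11 times the level of Squam in the same library. With Squam* joined to Squam the ratio was 0.994, so the lower level in Squam depended on which cells carry the asterisk.
TAC1* went the other way, from 8 UMIs (5.55 CPM) to 146 (23.9 CPM), 4.30 times (2.13 to 10.2). TAC2 was 1.52 times control and 1.21 times after the free RNA bound.

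Serpinb5, maspin, had the most UMIs of the serpins described, at 473 and 520 CPM over all cells (1.10). Its control levels ran from 617 CPM in Basal, 594 in Wing and 590 in TAC1* to 299 in Conj and 121 in Squam. In all 84% of control and 82.3% of dry eye cells had a UMI. The ratio within LSC, TAC1, TAC2, Basal, Wing and Conj lay between 0.947 and 1.20, and it was 0.733 in Squam. TAC1* differed, with 590 CPM in control and 1156 in dry eye, 1.96 times (1.82 to 2.11). Levels in the other starred classes of dry eye were 1287 CPM in TAC2*, 1103 in LSC*, 822 in Wing* and 382 in Squam*, each 1.38 to 4.30 times the class of the same name. Starred cells held 26.3% of dry eye UMIs of Serpinb5, and without them the ratio over all cells was 0.948.

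Serpinb6a, a cytosolic inhibitor of trypsin-like proteases, had 28.9 and 39.7 CPM (1.38, interval 1.33 to 1.42, and 1.20 without starred cells), short of the fold. It was a gene of the lower layers: 97.1 CPM in LSC of control, 87.1 in TAC2, 68 in TAC1 and 54.3 in Basal, against 14 in Wing and 10.5 in Squam. Within the 8 classes the ratio ran from 0.892 in TAC1 to 1.21 in Wing, and the ratio over all cells was 1.07 once classes were given their shares in control. LSC* of dry eye stood apart at 253 CPM, 2.53 times LSC.
Serpinb9, the inhibitor of granzyme B, was found in too few cells for most classes, with 231 and 305 UMIs (1.22, interval 1.03 to 1.46, and 1.17 without starred cells) and less than 5 CPM in every class that had at least 100 cells in both libraries. No class with 50 or more UMIs had an interval that left out 1.

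Serpinh1, the collagen chaperone, had 698 and 1237 UMIs, or 3.65 and 5.97 CPM (1.64, interval 1.49 to 1.80). Like Serpinb6a it sat low in the epithelium: 22 CPM in LSC of control, 13.9 in TAC1*, 11.1 in TAC2, 11 in Basal and 10 in TAC1, then 1.04 in Wing, 0.932 in Conj and 0.145 in Squam, where neighbours from LSC to TAC1 had overlapping intervals, as did Wing and Conj. Wing was 1.88 times control (1.42 to 2.50) on 88 and 123 UMIs and Conj 1.82 times (1.04 to 3.31) on 19 and 44. The ratio in LSC was 1.44 with an interval of 0.978 to 2.18, and in TAC1, TAC2 and TAC1* the intervals also held 1. In Basal the ratio was 1.212, short of the fold, with an interval of 1.022 to 1.435 that left out 1. Once dry eye classes were given their shares in control, the ratio over all cells was 1.27, short of the fold.

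**Figure D4:**
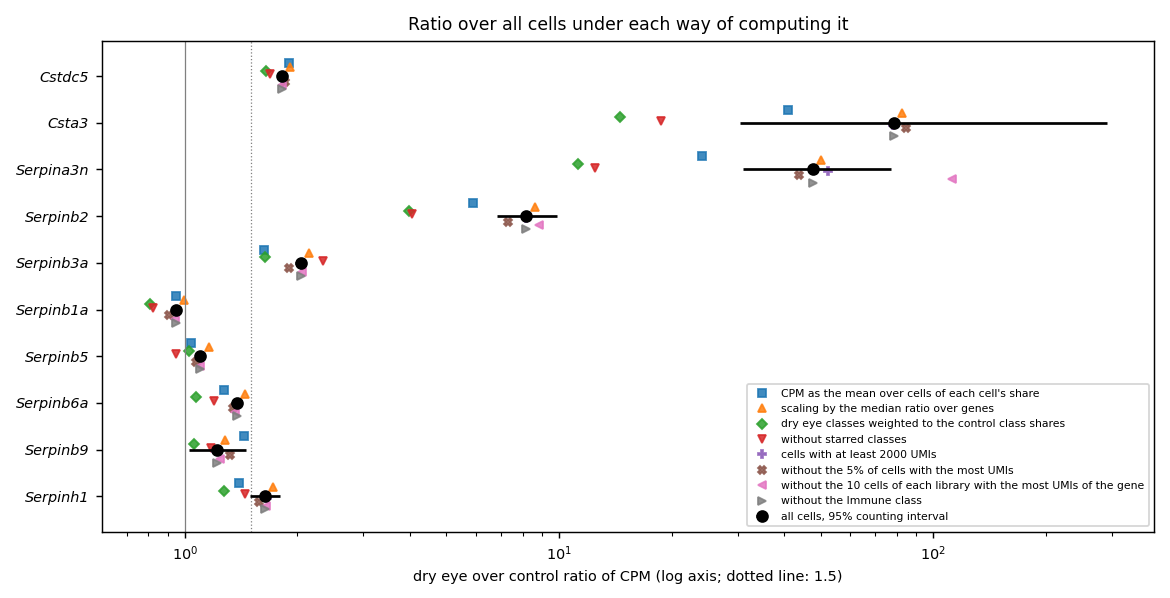
Ratio of dry eye over control CPM over all cells for each gene on a log axis, as reported with its 95% counting interval and under each other way of computing it; the dotted line marks 1.5-fold. Serpina3n, Csta3 and Serpinb2 drop most when starred classes are left out or class shares are weighted, and Serpinb5, Serpinb1a and Serpinb9 stay within 1.5-fold under each.

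Genes with the most similar pattern were sought over 19 sums, each a class in a library with at least 100 cells, by the Pearson correlation of log2(CPM + 1) among 6852 genes; the sums share 2 libraries and their class depths, and the values are descriptive. For Serpina3n they were Msn (0.98), the cytoskeletal linker moesin, with Ltbp1 and Ly6c1. Serpinb3a was closest to Sptssb (0.97), Rgcc and Cyp2f2, and Serpinb2 to Rab24 (0.92), Sult2b1 and Tslp. Cstdc5 went with Serinc2 (0.96), the stress keratin Krt6a (0.95) and the growth factor Tgfa. Serpinb1a was closest to Ppp1cb, Mfsd5 and Gsn, Serpinb5 to Bzw1, Glo1 and Ostc, Serpinb6a to Fgfr3, Cav1 and Snai2, and Serpinh1 to Acsl4, Maged1 and Cav1.
Among the 10 genes themselves Serpinb6a and Serpinh1 were the nearest pair (0.965). Serpinb1a and Cstdc5 (0.877) came next, then Serpina3n and Csta3 (0.719). The stefins Cstdc5 and Csta3 stood at 0.437. The sums left out LSC* of dry eye, which had 85 cells. Csta3 was highest in that class, at 75.4 CPM, while Serpina3n stood there at 10.5 CPM, below its 23.7 CPM in LSC. Csta3 had 4 control and 340 dry eye UMIs, too few for its own search of similar genes. Serpinb1a and Serpinh1 were the most opposed (-0.691), the first being a gene of upper and conjunctival cells and the second of limbal and basal ones.

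Related genes were counted over all cells in 9 lists among those with at least 50 UMIs, where 7.64% of 13997 genes were higher and 5.47% lower, with a median log2 ratio of -0.07. Of 9 other serpins outside clade B, most of them secreted, 4 were higher and 2 lower, with a median log2 ratio of 0.56. Serpina3i, a neighbour of Serpina3n, had 4 and 226 UMIs (52.3-fold, and 16.8-fold without starred cells), and Serpina3g had 0 and 55. Serpine2 and the complement C1 inhibitor Serping1 were 4.42-fold and 4.88-fold higher, or 4.51-fold and 2.47-fold without starred cells. Serpina1b and Serpina1e, of the alpha-1 antitrypsin group, were lower, at 0.452 and 0.525 times control. Serpina3g and Serpina3i share 31-base words with Serpina3n, in 2.96% of the end of its transcript.
Of 6 other clade B serpins only Serpinb6b was higher (2.87-fold) and Serpinb1c lower (0.410). Serpinb11 and Serpinb8, which had the most UMIs of the 6, were at 1.18 and 0.998. Of 11 other stefins and cystatins 4 were higher: Stfa2 from 38 to 427 UMIs (10.4-fold, and 3.09-fold without starred cells), Stfa3 (2.62-fold), Cstdc6 (1.72-fold) and Csta1 (1.60-fold). Stfa1, the nearest to Cstdc5 by window, was at 0.886, and Cst6, a secreted cystatin, at 0.780.

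Families of proteases that include targets of serpins or stefins were counted in the same way. Which of them the 10 genes act on was not tested. Among 11 cathepsins, the usual targets of stefins, Ctsz was higher (2.59-fold) and Ctsf lower (0.622), and the median log2 ratio was 0.03. Ctsb and Ctss were at 1.09 and 1.08. Of 28 epithelial serine proteases 9 were higher and 0 lower, with a median log2 ratio of 0.38: the kallikreins Klk12 (14 to 289 UMIs, 19.1-fold), Klk7 (15 to 200, 12.3-fold) and Klk13 (0 to 118) led, and Prss8 was at 0.929. The plasminogen activators Plau and Plat were at 1.465 and 1.491, short of the fold, and at 1.016 and 1.259 without starred cells.
The 2 leukocyte serine proteases measured, Gzma and Gzmm, were at 1 and 0.745 on 65 or fewer UMIs each, and both intervals held 1. Of 11 other protease inhibitors 5 were higher: Wfdc18 (5.12-fold), Spink5 (3.51-fold), an inhibitor of kallikreins, Pi15 (0 to 79 UMIs, with a lower limit of the ratio of 19.4, and of 2.68 without starred cells), Wfdc5 (1.93-fold) and Wfdc2 (1.82-fold, and 1.42-fold without starred cells).
For Serpinh1 the partners are collagens and the enzymes that modify them. Of 18 such chaperones and enzymes 5 were higher, namely Plod2 (45 to 298 UMIs, 6.13-fold, and 2.93-fold without starred cells), P3h3, Plod1, P4ha1 and P4ha2 at 1.57 to 1.92-fold, and without starred cells 2 of the 18 were. Of 10 collagens 3 were higher, Col4a1 (6 to 90 UMIs, 13.9-fold, and 5.70-fold without starred cells) and Col4a2 (10 to 111, 10.3-fold and 4.92-fold), the chains of basement membrane collagen, and Col18a1 (3.43-fold), while Col17a1, which had the most UMIs of the 10, was at 1.04. Serpine2, Csta1, Wfdc2, Wfdc5, P4ha1, P4ha2, Col17a1, Stfa1, Plau and Plat are named although the rule for naming did not take them. They were chosen once their values were known.

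**Figure D5:**
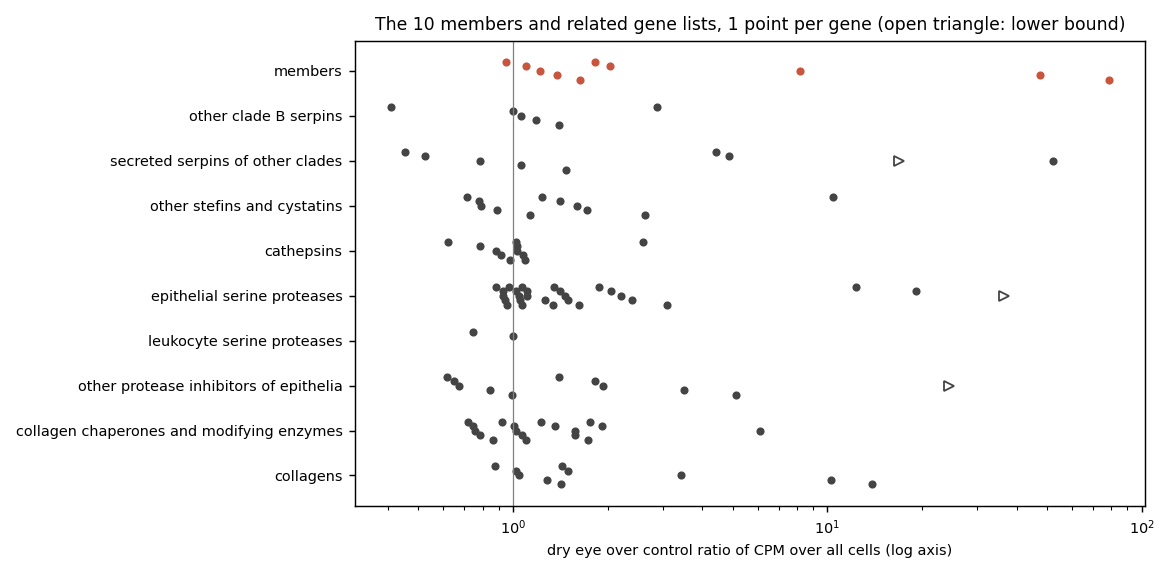
Ratio of dry eye over control CPM over all cells on a log axis, 1 point per measured gene of the 9 lists and of the 10 genes described, with open triangles at the lower bound for genes with 0 control UMIs. Serpins outside clade B, labelled as of other clades, spread widely, from 0.452 for Serpina1b to 52.3 for Serpina3i. Cathepsins lie between 0.622 and 2.59.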

How the data were processed

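The authors deposited UMI counts by gene and cell with no normalization, made from 10x Chromium 3′ v3.1 libraries per the labels' protocols, and all values were whole numbers. Cell Ranger 6.0.1, Seurat 4 and the build mm10 are named, without a role, in the submitters' processing notes. The sources used here do not say how genes, cells or doublets were filtered, and no doublet caller was run. Cells took their library and class from the authors' table of cells.

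Counts were summed by class and library and divided by the total to give CPM, with exact Poisson intervals. Clopper-Pearson intervals were used for ratios, by splitting the summed UMIs between libraries, and for shares. All are 95% intervals of counting error only; 1 control UMI equalled 0.00522 CPM and 1 dry eye UMI 0.00483 CPM, and a floor of 3 UMIs stood for a count of 0. No p-value was computed, since each group was 1 library. Genes were counted with at least 100 UMIs over all cells, 50 within a class, and 50 in lists. Free RNA was bounded by the upper limit of the lowest class mean of UMIs per cell among classes of at least 100 cells, and a difference passed if what was left still exceeded the other library's upper limit. Thinning to 3000 UMIs left out 1094 control and 784 dry eye cells. The interval calculation was tested on simulated data.

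The 10 genes and all lists were chosen with earlier results of these data known. One gene of the lists is not reported here and was left out of their counts. Named genes were all 10, the 3 highest and 2 lowest of each list, and for each member with at least 1000 UMIs the 3 most correlated genes. Alternatives covered scaling, class shares, starred cells, depth, cells with the most UMIs, free RNA and thinning; leaving the starred classes out of the list counts and a free RNA bound from any class were chosen after seeing the data. Sequences and coordinates are those of RefSeq for GRCm38.p6, the build that mm10 names. Python 3.11.15, NumPy 2.4.6, SciPy 1.17.1 and pandas 2.3.3 were used.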

Additional observations from a re-analysis of the deposited data

Results flagged for a closer look

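In 2 genes the direction of the difference between the libraries went opposite ways in different cell classes, each at least 1.5-fold from 1 and with a counting interval that did not reach 1. Serpinb3a in TAC2 was 2.14 times control, and in LSC 0.637 times. Serpinb1a in TAC1*, whose cells also differed in markers between the libraries, was 4.30 times control, and in Squam 0.594 times. Each group was 1 library, so the difference between classes was not tested.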

How the results depend on the processing

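Over all cells the 10 ratios kept their side of 1.5-fold under each alternative, except that Serpinh1 fell short of it by mean shares per cell (1.40), by class weighting (1.27) and without starred classes (1.45); the number of genes higher, Csta3 counted also where it had under 100 UMIs, was 5 or 6 and that of genes lower 0. The ratio ran from 11.3 to 112 for Serpina3n, 14.6 to 84.6 for Csta3, 3.98 to 8.82 for Serpinb2, 1.63 to 2.34 for Serpinb3a and 1.65 to 1.91 for Cstdc5. Class weighting used 11 classes and left out LSC* and Squam*, and Csta3 without its top 10 cells had 0 control UMIs and gave no value. Within classes Serpinb3a in Squam reversed, to 0.922 by mean shares per cell, 0.575 without the 5% of cells with the most UMIs and 0.807 without its top 10 cells. Pairs lower went from 2 to 1 among cells with at least 2000 UMIs and to 1 without the top 10 cells, where Serpinb3a in LSC fell short, and to 1 with starred cells joined, where Serpinb1a in Squam did. Pairs higher numbered 16 to 24. Of all genes with at least 20 CPM in a library, 134 were higher and 67 lower; a fold of 2 gave 54 and 6, and no CPM filter 900 and 657. Scaling by the median gene divided all ratios by 0.951. Thinning lowered all 20 shares of cells with a UMI. No paired analysis was possible because each group was 1 pooled library.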
